A study of Mus musculus with 7 samples.

Results

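The growth hormone, STAT5 and IGF1 axis of the liver was followed through 10 genes, namely Ghr, Jak2, Stat5a, Stat5b, Igf1, Igfals, Socs2, Cish, Bcl6 and Cux2, which were chosen by name and measured by 18 of the 55681 non-control probes of a mouse expression array. These genes and the gene lists further below were chosen with earlier results of these data known. Expression was measured in whole liver of mice at 4 weeks of age, with 1 array per animal. The 4 Rbpj+/+ animals carried floxed Rbpj alleles without AlfpCre, and the 3 Rbpj-/- animals carried the same floxed alleles with AlfpCre. At this age the study reports cholestasis, confluent liver necrosis and a lower body weight in Rbpj-/- mice. It reports neither cholestasis nor necrosis in Rbpj+/+ mice. The labels do not give these traits for the single animals used here. Rbpj encodes the DNA-binding partner through which Notch receptors act on their target genes. All animals were of the C57BL/6J strain, and the Alfp promoter drives Cre in hepatoblasts and therefore in both hepatocytes and bile duct cells, while other liver cells keep Rbpj. The sex of the animals is not given in the labels.

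Growth hormone from the pituitary binds GHR on hepatocytes, and the receptor-bound kinase JAK2 then phosphorylates STAT5A and STAT5B, which enter the nucleus and switch on their target genes. Among these targets are Igf1, the circulating growth factor made mostly by the liver, Igfals, which holds IGF1 in a stable complex in the blood, and Socs2 and Cish, which dampen the signal again. BCL6 is a repressor that competes with STAT5 for the same DNA sites, and CUX2 is a repressor known from female liver, where growth hormone is present in a steady rather than a pulsed pattern.

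Values below are log2 signals relative to the 75th percentile of the same array, so a level can be compared between animals for 1 probe but not between probes. A difference is the Rbpj-/- mean minus the Rbpj+/+ mean, and it was called where limma gave a Benjamini-Hochberg adjusted p below 0.1 over all 24550 tested probes. A gene with several probes is given by its brightest tested probe. Values of single livers are listed with animal Rbpj +/+_1155 first, followed by Rbpj +/+_1156, then by Rbpj +/+_1024 and last by Rbpj +/+_991, and for the other genotype with Rbpj -/-_N3 first, then Rbpj -/-_N5 and last Rbpj -/-_2866. Of all 18756 tested genes, 34.2% were called, 19.5% lower and 14.6% higher in Rbpj-/- liver, and the median difference was -0.13. This balance depends on the scaling, since 57.3% of the called probes were lower here, 48.7% with quantile normalization, 48.5% with the percentile over probes above background on all arrays, 48.4% in the authors' processed values and 63.3% with the percentile over all spots. Rbpj itself stood at 0.60 ± 0.34 (SD, n = 4) and, where it was deleted, at -0.54 ± 0.22 (SD, n = 3), a difference of -1.13 (SE 0.24, limma adjusted p = 0.0115), in a tissue that also holds cells without Cre. Whether this probe lies in the deleted part of the gene was not tested. A second probe named Rbpj, which the array design places on chromosome 6, differed by -1.63 (SE 0.58, limma adjusted p = 0.0723). Its values overlapped between genotypes, and it was well above background in 2 of the 3 Rbpj-/- livers. Between 41.1% and 65.0% of the probes were well above background on each array, and the arrays of animal Rbpj +/+_1156 and animal Rbpj -/-_N3 had a higher median signal (19.7 and 31.2) than the other 5 (5.40 to 8.80). All Rbpj+/+ arrays lay in 1 row of the slide and all Rbpj-/- arrays in the other, so slide row and genotype cannot be told apart. The Y-linked genes Ddx3y and Eif2s3y were each well above background on 7 of 7 arrays. Of the Y-linked Uty, 1 probe was well above background on 7 arrays and another on 3, and the probe of the Y-linked Kdm5d was on 0. One Xist probe was above background on the array of animal Rbpj +/+_1155 and on no other, and the other Xist probe on 0 arrays.

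Of the 9 axis genes that could be tested, 5 fell in Rbpj-/- liver (Ghr, Stat5a, Igf1, Igfals and Socs2), where 19.5% of all tested genes were called lower, and 0 rose (limma, also 0 at an unadjusted p below 0.05), where 14.6% of all tested genes were called higher. The other 4 (Jak2, Stat5b, Cish and Bcl6) were not called. In these 5 genes each Rbpj-/- liver lay below each Rbpj+/+ liver, as it did in 21.1% of all tested genes. By probe, 12 of the 17 tested probes of the axis were called, each of them lower, against 19.2% of all tested probes called lower. The median difference of the 9 genes was -0.93. Cux2 had 1 probe, which was not well above background on any of the 7 arrays and was not tested. In whole liver, fewer hepatocytes and less RNA per hepatocyte cannot be told apart. All 6 hepatocyte markers were well above background on all arrays, and 4 of them (Alb, Ttr, Apoa1 and Serpina1a) were lower in Rbpj-/- liver, with differences from -0.83 to -0.77. Tat and Cps1 stood higher, by 0.52 (SE 0.31, limma adjusted p = 0.252) and 0.94 (SE 0.45, adjusted p = 0.162), and were not called.

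**Figure D1:**
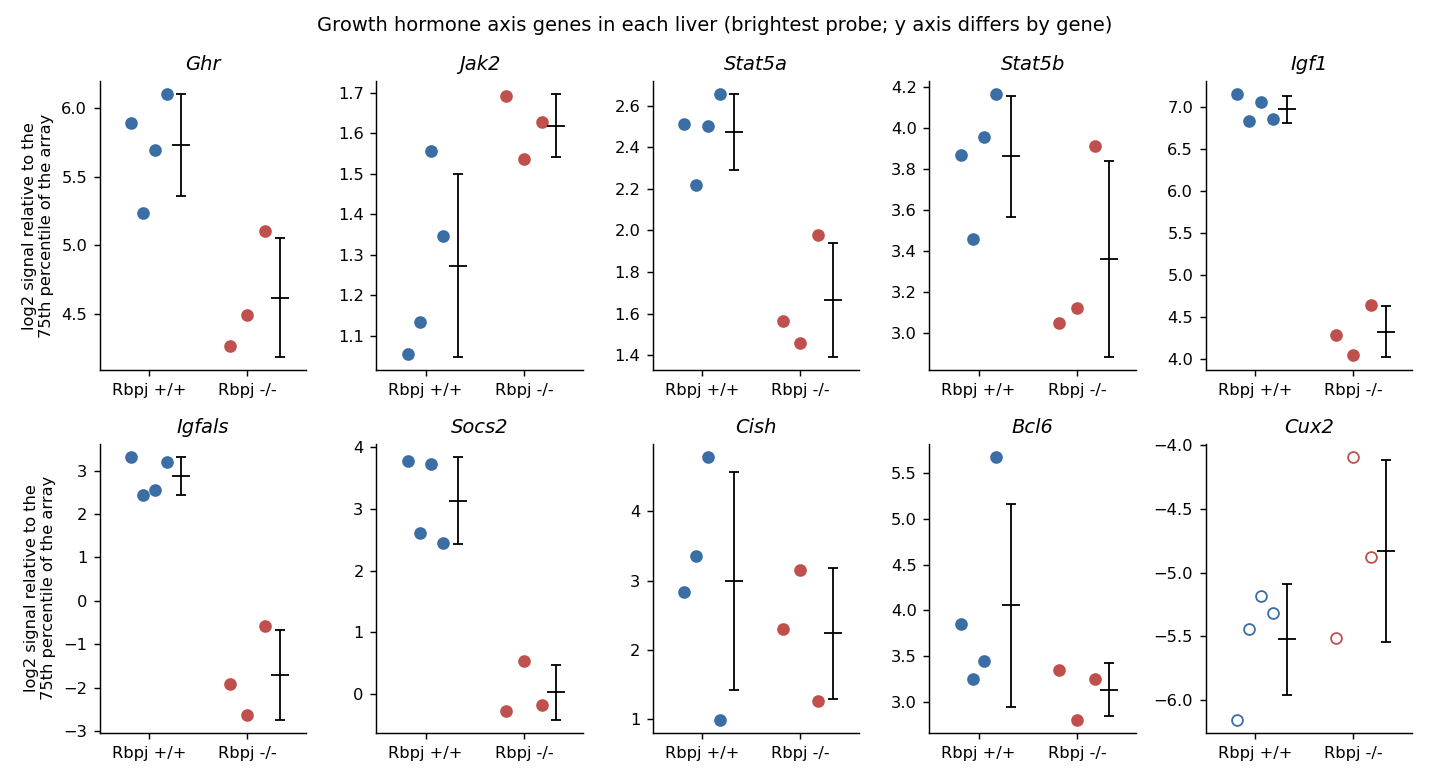
Each panel shows 1 gene of the axis, with the log2 signal relative to the array's 75th percentile on the y axis and the genotype on the x axis. Each point is 1 animal (blue 4 Rbpj+/+, red 3 Rbpj-/-), open points are not well above background, and the bars give the mean and SD. The red points of Ghr, Stat5a, Igf1, Igfals and Socs2 lie below all blue points, those of Cish, Bcl6, Stat5b and Jak2 overlap the blue ones, and all points of Cux2 are open.

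The receptor gene Ghr fell. Its brightest probe (chr15:3268107-3268166, mm9, minus strand) measured 5.90, 5.23, 5.69 and 6.10 in the Rbpj+/+ livers and 4.26, 4.49 and 5.10 in the Rbpj-/- livers. The highest Rbpj-/- liver, that of animal Rbpj -/-_2866, lay just under the lowest Rbpj+/+ liver, that of animal Rbpj +/+_1156. The difference was -1.12 (SE 0.28, limma adjusted p = 0.023), a 2.17-fold lower signal, and the exact two-sided permutation test over the animals gave p = 0.0571, where 4 against 3 animals allow no p below 0.0286. The second Ghr probe (chr15:3277543-3277602), which the array design assigns to another RefSeq transcript of the gene, measured 5.41, 4.93, 5.37 and 5.36 against 3.35, 3.48 and 4.12. It fell by 1.62 on the log2 scale (SE 0.24, limma adjusted p = 0.00328). On every array of the Rbpj-/- animals the second probe lay further below the first than on any Rbpj+/+ array, by 0.91 to 1.01 against 0.30 to 0.74, and the change of this gap was -0.50 (SE 0.11, exact two-sided permutation p = 0.0571, adjusted p = 0.0571 over 3 such comparisons, which were chosen after the values were seen).

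Jak2, the kinase bound to the receptor, was measured by 1 probe (chr19:29387487-29387546, mm9). It stood at 1.06, 1.13, 1.56 and 1.35 in Rbpj+/+ and at 1.69, 1.54 and 1.63 in Rbpj-/- liver. The groups overlapped, since the Rbpj+/+ liver of animal Rbpj +/+_1024 lay above that of animal Rbpj -/-_N5. The difference of 0.35 (SE 0.19, 95% interval -0.09 to 0.78, limma adjusted p = 0.22) was not called. With a normexp background correction it was 0.46 and was called (limma adjusted p = 0.0229).

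Stat5a and Stat5b encode the paired signal transducers and lie next to each other on chromosome 11. The Stat5a probe (chr11:100746373-100746432, mm9) measured 2.51, 2.22, 2.50 and 2.66 in Rbpj+/+ liver. In Rbpj-/- liver it measured 1.56, 1.46 and 1.98, each below every Rbpj+/+ value. Stat5a fell by 0.81 on the log2 scale (SE 0.21, limma adjusted p = 0.0249, exact two-sided permutation p = 0.0286), and without animal Rbpj -/-_N5 the fall was 0.70 with an adjusted p of 0.104. The brightest Stat5b probe (chr11:100642045-100642104) measured 3.87, 3.46, 3.95 and 4.16 against 3.05, 3.12 and 3.91. Animals Rbpj -/-_N3 and Rbpj -/-_N5 lay below all Rbpj+/+ livers and animal Rbpj -/-_2866 lay among them. Its difference of -0.50 (SE 0.27, 95% interval -1.11 to 0.11) was not called (limma adjusted p = 0.208), nor was that of the second Stat5b probe, -0.41 (adjusted p = 0.334). Without animal Rbpj -/-_2866 the Stat5b difference was -0.78 and was called (limma adjusted p = 0.0763). The gap between the Stat5a and Stat5b probes ran from -1.51 to -1.24 in Rbpj+/+ and from -1.93 to -1.49 in Rbpj-/- livers, with a narrow overlap. It changed by -0.31 (SE 0.14, exact two-sided permutation p = 0.0571, adjusted p = 0.0571 over the 3 comparisons).

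The axis genes were also set against the hepatocyte markers, whose mean over all 6 differed by -0.29. This mean joins the 4 markers called lower (-0.83 to -0.77) with Tat and Cps1, which stood higher. The Stat5a difference of -0.81 lay within the range of those 4 markers. Relative to the mean of the 6 hepatocyte markers on the same array, the difference of Ghr was -0.82 (SE 0.26, exact two-sided permutation p = 0.0571, adjusted p = 0.103). That of Stat5a was -0.52 (SE 0.21, exact p = 0.0857, adjusted p = 0.129), and its values then overlapped between genotypes. Jak2 stood higher by 0.64 (SE 0.18, exact p = 0.0571, adjusted p = 0.103). The same measure, taken for 9 genes after the values were seen, gave -2.36 for Igf1 (SE 0.26), -4.29 for Igfals (SE 0.65) and -2.81 for Socs2 (SE 0.39). In these 3 genes the genotypes stayed apart (exact two-sided permutation p = 0.0286 each, 0.0858 after adjustment over the 9), so each fell further than the hepatocyte marker mean of the same arrays.

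The STAT5 target genes come next, and the DNA upstream of them was read from the RefSeq promoter table, which gives 250 bases before and 50 after each annotated start on GRCm38.p6. The motif TTCNNNGAA, the palindromic core bound by STAT5 and also by BCL6, reads the same on both strands. It occurs in 9.55% of the 27025 genes of the table and in 3 of the 9 axis genes found there, namely Cish, Bcl6 and Igfals. The 16 promoters of these 9 genes hold it in 5 cases, and Socs2 was not matched. Bcl6 holds 3 copies in the window of its second start, and 0.037% of all genes hold 3 or more in any of their windows. Cish holds 2, at bases 1 to 9 and 12 to 20 after its start, and 0.54% of all genes hold 2 or more in 1 window. One window of each of the 3 genes is shown to let the motif and its spacing be read, from 250 bases before to 30 after the start, 5′ to 3′, with the motif in capitals.
Igfals, second start, chr17:24877981-24878260 (GRCm38.p6), plus strand: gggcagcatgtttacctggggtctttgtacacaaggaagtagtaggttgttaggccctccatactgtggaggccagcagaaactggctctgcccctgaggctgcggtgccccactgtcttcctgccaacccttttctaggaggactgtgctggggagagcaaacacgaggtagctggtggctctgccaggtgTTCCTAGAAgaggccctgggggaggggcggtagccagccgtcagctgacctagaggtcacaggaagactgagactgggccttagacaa
Cish, chr9:107296409-107296688 (GRCm38.p6), plus strand: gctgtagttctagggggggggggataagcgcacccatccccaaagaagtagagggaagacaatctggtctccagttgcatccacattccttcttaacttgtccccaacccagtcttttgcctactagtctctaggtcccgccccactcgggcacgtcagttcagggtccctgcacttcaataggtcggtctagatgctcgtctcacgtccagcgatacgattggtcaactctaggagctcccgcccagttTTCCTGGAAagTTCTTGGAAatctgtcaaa
Bcl6, second start, chr16:23981254-23981533 (GRCm38.p6), minus strand: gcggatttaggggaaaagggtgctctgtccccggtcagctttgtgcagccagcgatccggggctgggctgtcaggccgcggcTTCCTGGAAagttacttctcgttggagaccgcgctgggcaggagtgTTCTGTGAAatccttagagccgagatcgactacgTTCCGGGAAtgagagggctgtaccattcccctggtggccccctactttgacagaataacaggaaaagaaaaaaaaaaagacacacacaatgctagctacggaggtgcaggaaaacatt
The first listed start of Igfals and that of Bcl6 have 1 copy each, and no copy lies in the windows of Ghr, Jak2, Stat5a, Stat5b, Igf1 or Cux2, which says only that these letters are not there.

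Igf1, the growth factor through which much of growth hormone's effect on body growth runs, was measured by 5 probes with 2 spots each, and all 5 fell. The brightest (chr10:87393581-87393640, mm9) measured 7.15, 6.83, 7.06 and 6.85 in Rbpj+/+ liver. In the Rbpj-/- livers it measured 4.28, 4.05 and 4.65. Values within a genotype differed by 0.32 and 0.60 at most, and the genotypes lay far apart. The difference was -2.65 (SE 0.21, 95% interval -3.12 to -2.18, limma adjusted p = 0.000265), a 6.28-fold lower signal. A call with a difference of -2.5 or less was made for 0.72% of all tested genes and for 3 of the 9 axis genes, Igf1, Igfals and Socs2. This cutoff was not planned and lies close to the Igf1 difference itself, so the count describes these genes and is no test. The other 3 probes of the main transcript, 1 of which overlaps the brightest on the genome, fell as well, with differences of -2.69, -3.17 and -3.04.

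The probe for Igf1 transcript variant 2 (chr10:87378456-87378515) fell less. It measured 2.42, 2.42, 2.80 and 2.36 in Rbpj+/+ and 1.13, 1.63 and 1.66 in Rbpj-/- liver, again without overlap. Its difference was -1.02 (SE 0.21, limma adjusted p = 0.0118), a 2.03-fold lower signal. Its gap to the brightest probe ran from -4.74 to -4.26 in Rbpj+/+ and from -3.15 to -2.41 in Rbpj-/- livers, and it narrowed by 1.63 (SE 0.24, exact two-sided permutation p = 0.0286, adjusted p = 0.0571 over the 3 comparisons). Whether this probe also binds other transcripts was not tested.

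Igfals, the acid-labile subunit that keeps IGF1 and its binding protein in the circulation, showed the largest difference of the 9 tested genes. Its probe (chr17:25018251-25018310, mm9) measured 3.32, 2.44, 2.56 and 3.19 in Rbpj+/+ liver and -1.91, -2.62 and -0.59 in Rbpj-/- liver. All 3 Rbpj-/- livers were lower by several log2 units, and animal Rbpj -/-_2866 was the least low. The difference was -4.58 (SE 0.45, 95% interval -5.61 to -3.56, limma adjusted p = 0.000616), a 23.9-fold lower signal. With the normexp correction the difference was -2.98.

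Socs2, a feedback inhibitor that binds the activated receptor, was measured by a probe printed in 10 spots per array (chr10:94875066-94875125, mm9, minus strand). The SD over these spots was 0.07 to 0.11 on each array. The probe measured 3.77, 2.60, 3.72 and 2.45 in the Rbpj+/+ livers and -0.28, 0.54 and -0.17 in the Rbpj-/- livers. The Rbpj+/+ livers formed a higher pair, animals Rbpj +/+_1155 and Rbpj +/+_1024, and a lower pair, animals Rbpj +/+_1156 and Rbpj +/+_991, and all Rbpj-/- livers lay below both. The difference was -3.11 (SE 0.39, limma adjusted p = 0.0017), an 8.61-fold lower signal. Both further probes named Socs2, which the array design places on chromosome 12 (chr12:14502004-14502063 and chr12:14501723-14501782), fell as well, with differences of -2.81 and -2.86. Which transcript they detect is uncertain.

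**Figure D2:**
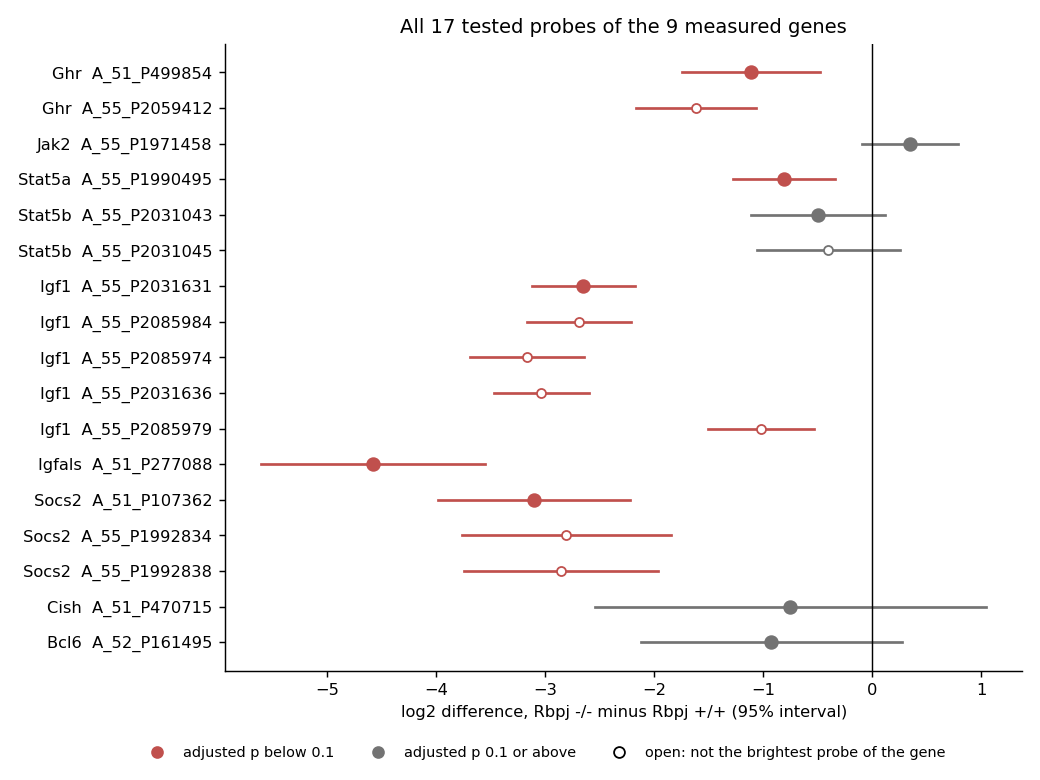
Each row is 1 of the 17 tested probes of the axis, with the log2 difference between Rbpj-/- and Rbpj+/+ liver on the x axis and its 95% interval as a line. Filled points are the brightest probe of a gene, red marks an adjusted p below 0.1. The intervals of 12 probes lie wholly below 0, those of Jak2, Stat5b, Cish and Bcl6 span 0, and the Igf1 probe at -1.02 stands to the right of the other 4 Igf1 probes.

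Cish, the other feedback inhibitor and the target that follows a growth hormone pulse most quickly, was not called. Its probe (chr9:107204196-107204255, mm9) measured 2.84, 3.36, 4.79 and 0.99 in Rbpj+/+ and 2.31, 3.15 and 1.26 in Rbpj-/- liver. All Rbpj-/- values lay inside the range of the Rbpj+/+ values. The difference was -0.75 (SE 0.79, 95% interval -2.55 to 1.04, limma adjusted p = 0.515), an interval that spans 0 and reaches close to the Igf1 difference at its lower end. Without Rbpj +/+_1024 it was -0.15 and without Rbpj +/+_991 -1.42, neither of them called. The Rbpj+/+ livers alone spanned 3.80 on the log2 scale, and their SD of 1.57 was larger than that of 99.9% of the 16891 tested genes well above background on all 4 of these arrays.

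Bcl6, the repressor at STAT5 sites, varied in the same way. Its probe (chr16:23965160-23965219, mm9) measured 3.85, 3.25, 3.44 and 5.68 in Rbpj+/+ and 3.35, 2.80 and 3.25 in Rbpj-/- liver. Animal Rbpj +/+_991 stood above all other livers, and the genotypes overlapped. The difference of -0.93 (SE 0.53, 95% interval -2.13 to 0.28, limma adjusted p = 0.232) was not called, and without Rbpj +/+_991 it was -0.38 (adjusted p = 0.338). The SD over the Rbpj+/+ livers was 1.11, larger than in 99.3% of the genes, whereas the 3 Rbpj-/- livers spanned 0.54.

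The Rbpj+/+ animal with the highest Bcl6 value, Rbpj +/+_991, had the lowest Cish and the lowest Socs2 value of its genotype by the brightest probes. On the Socs2 probe at chr12:14501723-14501782, Rbpj +/+_1156 was lowest instead, at 0.88 against 1.30 for Rbpj +/+_991. Animal Rbpj +/+_1024 had the highest Cish value and the next-to-highest Socs2 value. With 4 animals no relation between the genes was tested. Socs2 also varied more among Rbpj+/+ livers than 95.2% of the genes, while Igf1, with an SD of 0.16, varied less than most (13.3% of the genes had a smaller SD), so the spread of an axis gene among control animals ranged from among the smallest to among the largest on the array.

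**Figure D3:**
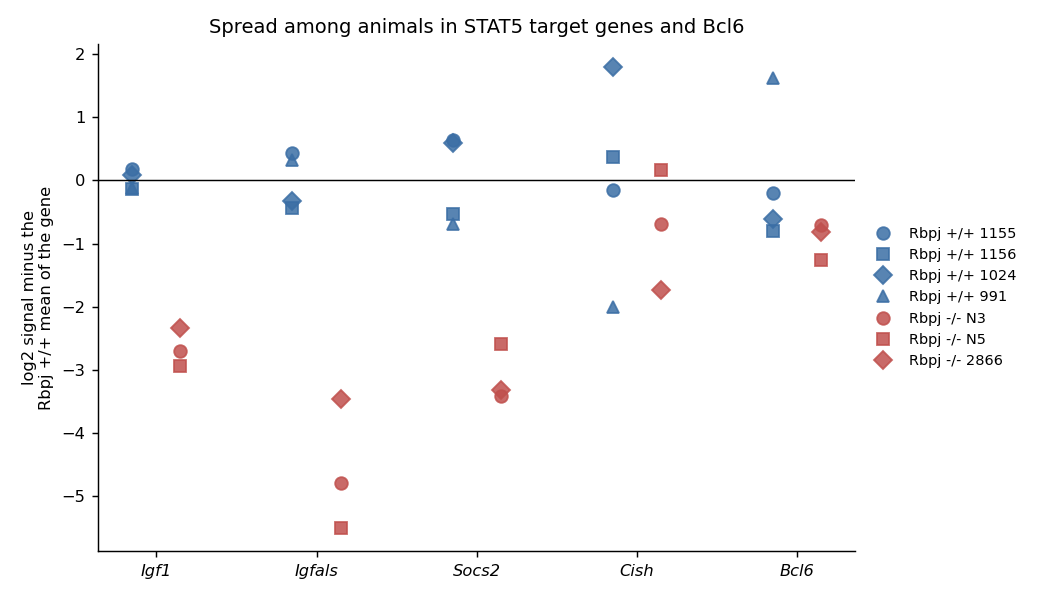
The log2 signal of 5 genes is drawn for each animal as its distance from the Rbpj+/+ mean of that gene, with 1 symbol per animal (blue Rbpj+/+, red Rbpj-/-). The blue symbols of Igf1 lie within 0.32 of each other and those of Cish are spread over 3.80. Animal Rbpj +/+_991, the blue triangle, is lowest in Cish and Socs2 and highest in Bcl6.

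Among other genes that carry or restrain the growth hormone signal, 5 of 17 tested rose and 2 fell, where 14.6% of all tested genes were called higher and 19.5% lower. Their median difference was 0.38, against -0.13 over all tested genes. Socs3, an inhibitor induced by interleukin 6 and related cytokines, rose by 2.54 (SE 0.59, limma adjusted p = 0.0173). Cbl, a ubiquitin ligase, was higher by 1.51 (SE 0.28, adjusted p = 0.00732), with a signal well above background in 1 of the 4 Rbpj+/+ livers, so that the size of its difference rests largely on background values. The largest falls were those of Prlr, the prolactin receptor related to GHR, by 2.32 (SE 0.51, adjusted p = 0.0138), and of Socs7 by 0.45 (adjusted p = 0.0955). The others that rose were the phosphatases Ptpn1 and Ptpn6 and the receptor Sirpa, which recruits such phosphatases. Ptpn6 and Sirpa are also expressed in macrophages, of whose 5 markers 4 rose. The markers' summed level, the log2 of their added linear signals, ran from 6.13 to 6.54 in Rbpj+/+ and from 7.91 to 8.34 in Rbpj-/- livers. The brightest probes weigh most in such a sum, here Marco in Rbpj-/- liver, so it is no measure of cell number. Their part in these results was not tested.

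Of 12 tested genes of the remaining IGF system 2 rose and 2 fell, a share called near that of all tested genes (14.6% higher and 19.5% lower), with a median of -0.20 that turned to 0.09 with the normexp correction and to 0.15 in the authors' processed values. Without Rbpj +/+_991 or Rbpj -/-_N5, 2 genes of the list were called. Igfbp3, which forms the circulating complex with IGF1 and Igfals, was lower by 1.96 on the log2 scale in Rbpj-/- liver (1.07 ± 0.43, SD, n = 4, against -0.88 ± 1.06, SD, n = 3, limma adjusted p = 0.0181), and Igfbp5 fell by 1.72 (adjusted p = 0.084). Igfbp1, a binding protein that insulin keeps low, rose from a mean of 6.38 (SD 0.42) to one of 8.37 (SD 0.45, limma adjusted p = 0.00322). Igf1r, the IGF1 receptor, which is low in hepatocytes, rose by 0.78 (adjusted p = 0.044). Markers of stellate cells and fibroblasts rose beside it in 5 of 6 cases, Lrat only just past the threshold (limma adjusted p = 0.0996). Their summed level, in which Col3a1 and Col1a1 weigh most, was 4.97 to 5.64 in Rbpj+/+ and 6.07 to 6.80 in Rbpj-/- livers. The part of these cells in the Igf1r rise was not tested. The transcripts of Igf1, Igfbp3 and Igfals, whose proteins join in the circulating complex, thus were each lower in Rbpj-/- liver, and the complex itself was not measured. Igf2, Pappa, Pappa2, Stc1 and Stc2 were not tested for lack of signal.

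Transcription factors that act with STAT5 on liver genes were lower in 6 and higher in 1 of 16 tested cases, where 19.5% of all tested genes were called lower and 14.6% higher, with a median of -0.44. Cebpa, a factor of hepatocyte differentiation, fell by 1.01 (SE 0.39, limma adjusted p = 0.0877), and Foxa1, which opens chromatin at liver genes, fell by 0.97 (SE 0.35, adjusted p = 0.0766). Trim24 was higher by 0.86 (SE 0.23, adjusted p = 0.0305). Only 2 of the 7 calls held at an adjusted p below 0.05, and 2 genes were called without Rbpj -/-_N3 or without Rbpj -/-_N5, 3 without Rbpj +/+_1024 and 4 without Rbpj +/+_991 or Rbpj -/-_2866.

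Liver genes that depend on the pattern of growth hormone release are a known target group of STAT5. The lists used here were drawn up with earlier results of these data known, so their counts describe these genes and are no test. Of 16 tested genes known as higher in male liver 15 fell and 0 rose, where 19.5% of all tested genes were called lower and 14.6% higher. With the normexp correction, with quantile normalization and in the authors' processed values 1 of them rose. The median difference was -3.96. Hsd3b5, a steroid dehydrogenase, had a mean of 7.47 in Rbpj+/+ livers (SD 0.29) and of -3.47 in Rbpj-/- livers (SD 2.49), a difference of -10.94 (limma adjusted p = 0.000379). Cyp4a12b, whose near-identical copy Cyp4a12a a probe may not tell apart, differed by -9.93 (adjusted p = 0.000301). Both were well above background in 1 of the 3 Rbpj-/- livers, so the direction was measured but the size of these differences rests largely on background values. The probes of Hsd3b5, Cyp4a12b, Slco1a1 (2 of 3 Rbpj-/- livers) and Elovl3 (0 of 3) passed the filter only through the Rbpj+/+ arrays, where they were higher. With signal required on all 7 arrays, 11 genes of this list were called. Of 15 tested genes known as higher in female liver 6 rose and 1 fell, beside the same shares of all tested genes (14.6% higher and 19.5% lower). Their median was -0.06, or 0.14 with the normexp correction. The sulfotransferases Sult2a1 and Sult1e1 were higher by 9.77 (SE 0.87, adjusted p = 0.000427) and 6.29 (SE 1.10, adjusted p = 0.00609), each with a signal above background in 2 of the 4 Rbpj+/+ livers, so these sizes rest in part on background values. Cyp2b9 and Cyp2b13 rose as well, each with a signal above background in 1 of the 4 Rbpj+/+ livers. The probes of Sult2a1, Sult1e1, Cyp2b9 and Cyp2b13 passed the filter only through the Rbpj-/- arrays, where they were higher. The count of rises thus rests in part on how genes entered the test. With signal required on all 7 arrays, 5 genes of this list were called. Lifr, the leukaemia inhibitory factor receptor, fell by 2.82 (SE 0.33, adjusted p = 0.00128). The signals of the sex-linked genes are given above, and the part of sex in these differences was not tested.

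Genes of lipid uptake and storage that are known to rise in liver without growth hormone signalling were higher in 5 of 7 tested cases. Lower were 0 by limma (1, Plin2, at an unadjusted p below 0.05), where 14.6% of all tested genes were called higher and 19.5% lower. With the percentile over probes above background on all arrays, and with that over all spots, 1 gene of the list was called lower. The median difference was 1.28. Cd36, a fatty acid transporter, rose by 3.40 (SE 0.19, limma adjusted p = 5.97e-05), and Pparg, a regulator of fat storage, rose by 1.38 (SE 0.32, adjusted p = 0.0177). Plin2 and Scd1 were not called. Cd36 is also made by macrophages and endothelial cells, and the macrophage markers rose as given above. The endothelial markers were higher in 1 and lower in 1 of 5 cases, with summed levels of 5.01 to 5.46 and 5.07 to 5.58.

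**Figure D4:**
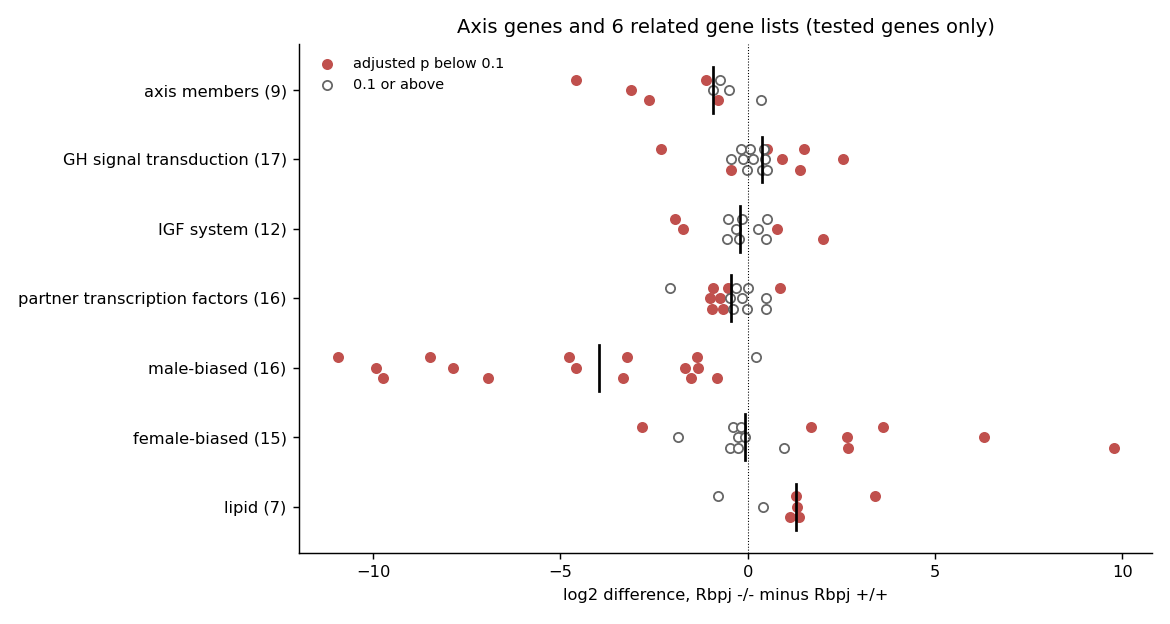
Each point is 1 tested gene, placed by its log2 difference between Rbpj-/- and Rbpj+/+ liver on the x axis and by its gene list on the y axis, with the number tested in parentheses. Red points have an adjusted p below 0.1 and the black bar is the list's median. The male-biased list lies to the left (median -3.96) and the lipid list to the right (1.28). The axis genes lie mostly left (-0.93). The point of Elovl3 at -9.73, a gene named after its values were seen, is no measured difference, since its signal was not well above background in any Rbpj-/- liver, and it was at least 295-fold lower there (limma adjusted p = 0.000229).

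In all 20 alternatives, among them other normalizations, another background correction and leaving out animals, Igf1, Igfals and Socs2 stayed called and lower, with ranges of -2.81 to -2.27, -5.14 to -2.98 and -3.36 to -2.41. Ghr ran from -1.37 to -0.78 and Stat5a from -0.96 to -0.51, and both lost the call when the filter on dim probes was removed (limma adjusted p = 0.16 and 0.171). Cish was not called under any of them, with differences from -1.42 to -0.15. Without animal Rbpj +/+_1156 and animal Rbpj -/-_N3 together, whose dim probes were brighter, 5 axis genes were called lower and 0 higher.

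**Figure D5:**
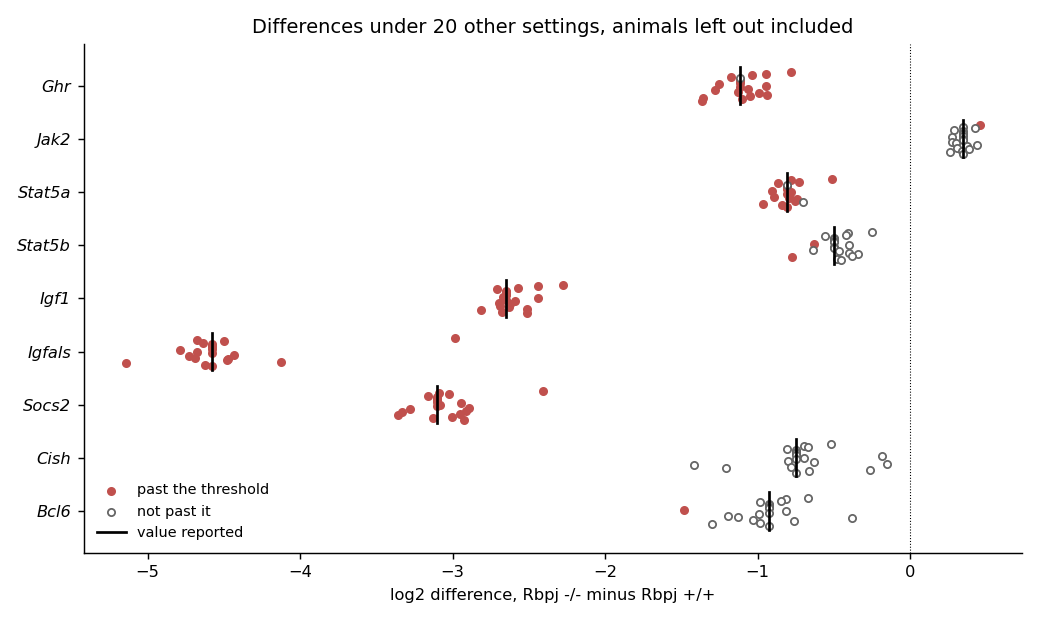
Each point is the log2 difference of 1 gene under 1 of 20 alternatives, with the genes on the y axis. Red points pass the threshold, open points do not, and the black bar is the value reported. All points of Igf1, Igfals and Socs2 are red and lie at -2.27 or below, all points of Cish are open, and all points of Jak2 lie above 0.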

How the data were processed

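Each sample was total RNA of 1 whole liver, labelled and hybridised by the authors to a single-colour Agilent mouse array and read with Agilent Feature Extraction 10.7.3.1. Per the file headers, the deposited scanner files hold for each spot the raw and the processed signal intensity, the local background, and flags, with probe positions on mm9. The authors' series table, used as an alternative, holds deposited log2 values centred on each probe's median, with column medians of -0.0039 to 0. The methods name a shift to the 75th percentile, but between arrays the table differed from quantile-normalized signal by -0.0101 to 0.00741 (1st to 99th percentile, 21252 probes) and from shifted signal by -1.51 to 0.342, so it is close to the quantile alternative and no separate check of it. Of 59305 non-control spots per array, spots flagged as non-uniform or population outliers (1186 over 7 arrays) were dropped, and 0 were saturated. Spots of a probe were averaged as log2 processed signal, and the 75th percentile of the array was subtracted. A probe entered the test if each array of 1 genotype, or of both, gave it a positive and significant signal that stood well above background. limma 3.58.1 (R 4.3.3; lmFit, eBayes, no covariate) was fitted over 24550 probes with Benjamini-Hochberg adjustment at 0.1, the false discovery rate of the study, whose shrinkage t was replaced by limma's moderated test. The fit was tested on simulated data. Single genes were also compared with an exact two-sided permutation test over animals. Replicates are separate animals, and their number limits the precision.

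The members and gene lists were chosen with earlier results of these data known. Named were all members, Rbpj and, from each list, up to 2 called genes with the largest rise and 2 with the largest fall. Some further list genes are named to give a limit. Lists were described by counts and medians, without a test. The cell type lists not given in the report ran as follows: 2 of 4 cholangiocyte, 2 of 3 neutrophil and 4 of 4 proliferation markers rose, and 5 of 6 lymphocyte and 1 of 3 erythroid markers fell. Of all tested genes 14.6% were called higher and 19.5% lower. Selenbp2 and Cyp3a41a were not found by name on the array. Exon and intron positions of probes were not used here, since no mm9 annotation was at hand. Figures were drawn with matplotlib 3.10.9.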

Additional observations from a re-analysis of the deposited data

Results flagged for a closer look

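In 2 of the 18 probes of the axis, 1 of the 4 Rbpj+/+ livers stood apart from the other 3 by more than Dixon's critical value for 4 samples. For the probe of Igf1 transcript variant 2, animal Rbpj +/+_1024 was high, with a gap of 0.38 on the log2 scale that made up 0.872 of the range. For the second Ghr probe, animal Rbpj +/+_1156 was low, with a gap of 0.43 that made up 0.900 of the range. Chance alone gives about 1 such case in 20 groups, and both probes kept the genotypes apart.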

How the results depend on the processing

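No axis gene changed direction under the 20 alternatives, while the medians of the IGF system and female-biased lists changed sign and the share of lower among called probes ran from 48.4% to 63.3%, as given in the report. Bcl6 ran from -1.48 to -0.38. With normexp background correction Jak2 was called at 0.46, so that 1 axis gene was higher. With the 75th percentile taken over probes above background on all arrays, 12 genes of the growth hormone signalling list were called. Without a filter on dim probes, where 55681 probes were tested, 2038 probes and 3 axis genes (lower) were called, Ghr (-1.12) and Stat5a (-0.81) were not, and the lists gave 2 (growth hormone signalling), 1 (IGF system), 0 (partner factors), 4 (female-biased) and 1 (lipid) calls. With array weights Stat5b (-0.63) and Bcl6 (-1.48) were called. At an adjusted p below 0.05, 2 partner factors were called. With animals left out in turn, between 4673 (without Rbpj -/-_N5) and 9020 probes were called, 5468 without Rbpj +/+_1024, 4 to 6 axis genes were lower, the Stat5a difference was -0.96 to -0.70 and that of Stat5b -0.78 to -0.35. The partner factors then gave 2 to 7 and the IGF system 2 to 6 calls, the latter 2 without Rbpj +/+_991 or Rbpj -/-_N5. The cause of these changes was not tested. The percentile over all spots, and leaving out animals Rbpj +/+_1156 and Rbpj -/-_N3 together, were added after seeing the data. No paired analysis was possible because the animals of the genotypes share no replicate numbers.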
